A study of Mus musculus with 15 samples.

Results

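The glucocorticoid receptor gene Nr3c1 and 8 genes that are classic targets of the receptor, Tsc22d3, Fkbp5, Per1, Zbtb16, Klf9, Sgk1, Txnip and Ddit4, were followed through an 18 h culture of mouse hematopoietic stem and progenitor cells. A member was a gene with a probe set that names this gene and no other, and the brightest such probe set was to stand for it. All 9 members were found, each with 1 probe set of this kind, among 22180 genes on the array. The cells were LSK cells, a sorted fraction that lacks mature lineage markers and carries Sca-1 and Kit. Each group had 5 Affymetrix Mouse Gene 2.0 arrays, made from 500 pg of total RNA, described in the study's design text as biological replicates. The non-cultured group was taken straight after the sort. The other two groups were kept for 18 h in Myelocult M5300 medium, either without extracellular vesicles (EV) or with vesicles from AFT stromal cells. The sources used here do not give mouse strain, sex or age, vesicle dose, the hour of collection or whether the medium held a glucocorticoid.

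The glucocorticoid receptor is a nuclear receptor that waits in the cytoplasm in a complex with the chaperone HSP90 and cochaperones. Binding of a corticosteroid moves it to the nucleus, where it binds response elements made of facing copies of the hexamer AGAACA and raises transcription of nearby genes, and it also holds down inflammatory genes by acting on NF-kB and AP-1. Several of its targets feed back on the receptor or carry its effects in blood cells. Several of the targets also answer to other signals: Txnip responds to glucose, Ddit4 to hypoxia and other stress, and Sgk1 and Per1 to serum and growth signals.

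The deposited values were log2 signals from 1.396 to 13.03, with array medians from 4.62 to 4.74. Differences are given on the log2 scale, and a gene was called when its limma p-value, adjusted by Benjamini-Hochberg over all 22180 genes, was under 0.05. The number of arrays limits the precision: the median standard error of a difference was 0.13. Of 9 LSK markers 7 were measured, and they went both ways. Flt3 was 8.89 to 9.05 in non-cultured cells, 9.50 to 9.66 without vesicles and 9.59 to 9.65 with vesicles, and the mean of Kit was 9.62, 10.01 and 9.88 in the same order. Mecom was 6.84 to 7.45 in non-cultured cells and lower in both cultures, at 6.27 to 6.57 and 5.94 to 6.73, and the mean of Hlf was 8.23, 7.95 and 7.85. Cd34 was 10.24 to 10.70 over all samples, and Slamf1 was dim, at 3.41 to 4.87. Ly6a, which encodes Sca-1, was not analysed here. The summed signal of the 7 LSK markers, on the log2 scale, does not show these opposite moves and was 11.88 to 12.03 in non-cultured cells, 11.95 to 12.05 without vesicles and 11.75 to 12.05 with vesicles. Replicate 1 with vesicles stood apart from the other arrays on the second principal component (10.7% of the variance), and without it 6 members were still called with vesicles against non-cultured cells and 0 between the cultures.

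Culture moved 6 of the 9 members and left 3 uncalled. Without vesicles, Tsc22d3, Fkbp5, Zbtb16, Txnip and Ddit4 rose and Sgk1 fell, each measured against non-cultured cells. Over all genes 13.6% were called in this comparison, 6.75% higher and 6.88% lower. The median difference of the 9 members was 1.28, beside 0.01 for all genes, and that of the 8 targets was 1.52. With vesicles, again set against the same non-cultured arrays, 5 members were called higher and 1 lower, where 14.1% of all genes were called (6.28% higher and 7.85% lower), and the members' median was 1.18 beside 0.04 for all genes. No member was called between the cultures with and without vesicles, where 0.198% of all genes were called, 0.18% higher and 0.018% lower. The groups did not overlap for 7 of 9 members without vesicles (12% of all genes), for 6 of 9 with vesicles (11.2%) and for none between the cultures (1.2%).

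**Figure D1:**
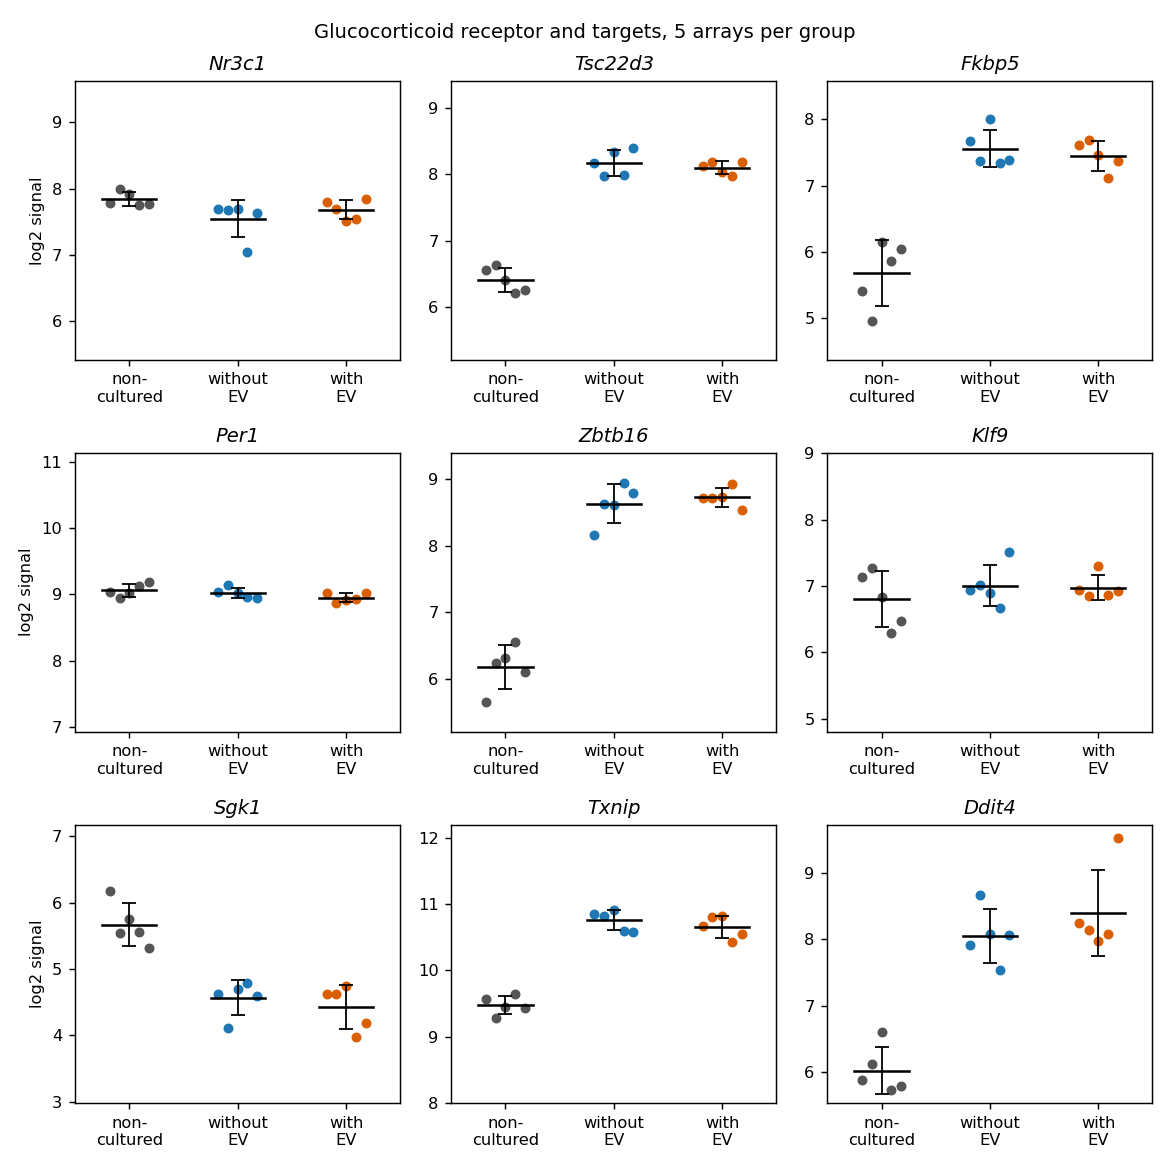
Log2 signal of each of the 9 members (vertical axis, every panel spanning the same log2 range) in the non-cultured, without EV and with EV groups. Points are single arrays (5 per group), horizontal lines are group means and bars are 1 SD; Tsc22d3, Fkbp5, Zbtb16, Txnip and Ddit4 sit higher in both cultures, Sgk1 lower, and Per1 and Klf9 overlap in all 3 groups.

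The transcript of the receptor gave a signal above the median gene mean of 4.88 in every sample. The log2 signal of Nr3c1 was 7.79, 7.99, 7.91, 7.76 and 7.77 in the non-cultured samples, 7.69, 7.67, 7.69, 7.04 and 7.63 after culture without vesicles and 7.80, 7.70, 7.52, 7.55 and 7.85 after culture with vesicles. All 5 samples cultured without vesicles lay below all 5 non-cultured samples, a downward separation seen in 6.1% of all genes. The difference was -0.30 (SE 0.12, 95% interval -0.56 to -0.04) and was not called (adjusted p = 0.132). Without vesicles, replicate 4 was the lowest sample of all, and leaving it out gave -0.17 (adjusted p = 0.292). With vesicles the receptor's samples overlapped the non-cultured ones, with a difference of -0.16 (adjusted p = 0.452).

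Tsc22d3 encodes the glucocorticoid-induced leucine zipper protein GILZ, which binds NF-kB and AP-1 subunits and carries part of the hormone's anti-inflammatory effect. On the log2 scale Tsc22d3 measured 6.55, 6.63, 6.40, 6.21 and 6.26 in the non-cultured samples, 8.17, 7.97, 8.34, 7.98 and 8.40 in those cultured without vesicles and 8.13, 8.18, 8.03, 7.97 and 8.19 in those cultured with vesicles. Every cultured sample was above every non-cultured sample, and the cultured groups overlapped each other. Without vesicles the difference from non-cultured cells was 1.76 (SE 0.11), a 3.39-fold higher signal (adjusted p = 2.13e-08), and with vesicles it was 1.69 (SE 0.11), or 3.22-fold (adjusted p = 3.66e-08). This difference ranked 94 from the highest among 22180 genes in the culture without vesicles.

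Fkbp5 encodes FKBP51, the HSP90 cochaperone that lowers the receptor's affinity for hormone and so closes a feedback loop on it. In non-cultured cells Fkbp5 had log2 signals of 5.41, 4.96, 6.15, 5.86 and 6.05, against 7.68, 7.38, 7.998, 7.34 and 7.39 without vesicles and 7.62, 7.69, 7.47, 7.11 and 7.38 with vesicles after culture. The non-cultured samples spread widely, from 4.96 to 6.15, yet none reached the lowest cultured sample. Without vesicles the difference from non-cultured cells was 1.87 (SE 0.20), a 3.66-fold higher signal (adjusted p = 1.08e-05), and with vesicles it was 1.77 (SE 0.20), or 3.41-fold (adjusted p = 1.89e-05).

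Zbtb16 encodes PLZF, a zinc finger repressor that acts in hematopoietic progenitors and in innate-like lymphocytes. The log2 signal of Zbtb16 was 5.65, 6.24, 6.31, 6.54 and 6.10 in the non-cultured samples, 8.17, 8.63, 8.62, 8.95 and 8.80 after culture without vesicles and 8.72, 8.72, 8.73, 8.94 and 8.54 after culture with vesicles. It had the largest rise of the 9 members in both cultures, and all cultured samples were above all non-cultured ones. Without vesicles the difference from non-cultured cells was 2.46 (SE 0.16), a 5.52-fold higher signal (adjusted p = 3.26e-08), and with vesicles it was 2.56 (SE 0.16), or 5.9-fold (adjusted p = 2.72e-08). Its rank was 34 from the highest among all genes without vesicles.

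Txnip encodes an arrestin-like protein that binds thioredoxin and limits glucose uptake. On the log2 scale Txnip measured 9.56, 9.28, 9.45, 9.64 and 9.43 in the non-cultured samples, 10.85, 10.81, 10.91, 10.60 and 10.58 in those cultured without vesicles and 10.66, 10.80, 10.81, 10.43 and 10.55 in those cultured with vesicles. Its arrays were close together, with group SDs between 0.14 and 0.17, and the cultured samples did not overlap the non-cultured ones. Without vesicles the difference from non-cultured cells was 1.28 (SE 0.10), a 2.43-fold higher signal (adjusted p = 4.05e-07), and with vesicles it was 1.18 (SE 0.10), or 2.26-fold (adjusted p = 1.01e-06). A second probe set shared by Txnip and Gm15441 was left out by the rule on single symbols; its mean was 6.05 in non-cultured cells, 7.13 without vesicles and 7.06 with vesicles.

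Ddit4 encodes REDD1, an inhibitor of the growth kinase complex mTORC1. In non-cultured cells Ddit4 had log2 signals of 5.87, 6.13, 6.60, 5.72 and 5.79, against 7.91, 8.66, 8.07, 7.54 and 8.06 without vesicles and 8.25, 8.13, 7.97, 8.08 and 9.53 with vesicles after culture. The rise was clear of the spread in both cultures, though replicate 5 with vesicles stood far above the other cultured samples. Without vesicles the difference from non-cultured cells was 2.03 (SE 0.27), a 4.07-fold higher signal (adjusted p = 8.98e-05), and with vesicles it was 2.37 (SE 0.27), or 5.17-fold (adjusted p = 1.93e-05). Without that replicate the difference between the culture with vesicles and non-cultured cells was 2.09 (adjusted p = 6.66e-06).

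Sgk1, which encodes the serum and glucocorticoid regulated kinase, an activator of ion channels and a relative of AKT, was the member that went down. The log2 signal of Sgk1 was 6.17, 5.54, 5.76, 5.55 and 5.32 in the non-cultured samples, 4.63, 4.11, 4.70, 4.79 and 4.60 after culture without vesicles and 4.62, 4.62, 4.74, 3.98 and 4.19 after culture with vesicles. Each non-cultured sample exceeded each cultured one. The signal fell by 1.10 on the log2 scale (SE 0.18) without vesicles, where it was 2.15-fold lower than in non-cultured cells (adjusted p = 0.000458). With vesicles it fell by 1.24 (SE 0.18), to a 2.36-fold lower signal (adjusted p = 0.000169). The cultured signals were dim, all below the median gene mean of 4.88, so the size of the fall is less sure.

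Per1 and Klf9 were not called in any comparison. Per1 encodes a repressor of the circadian clock. On the log2 scale Per1 measured 9.04, 8.95, 9.02, 9.12 and 9.19 in the non-cultured samples, 9.04, 9.13, 9.02, 8.96 and 8.94 in those cultured without vesicles and 9.02, 8.87, 8.92, 8.93 and 9.02 in those cultured with vesicles. All 15 samples lay within 8.87 to 9.19, and the interval of the difference was -0.20 to 0.11 without vesicles (adjusted p = 0.816) and -0.27 to 0.04 with vesicles (adjusted p = 0.377). The sign of Per1's small differences from non-cultured cells turned under quantile normalization, to 0.05 without and 0.06 with vesicles, and without vesicles also with non-cultured replicates 1 to 3 alone as the reference, to 0.02. Klf9 encodes a zinc finger transcription factor that in many cells follows corticosteroid levels closely. In non-cultured cells Klf9 had log2 signals of 7.14, 7.27, 6.83, 6.30 and 6.48, against 6.94, 7.01, 6.89, 6.67 and 7.51 without vesicles and 6.94, 6.85, 7.31, 6.86 and 6.92 with vesicles after culture. Its non-cultured samples ranged from 6.30 to 7.27 and took in most cultured samples, and the intervals were wider than those of Per1, at -0.20 to 0.60 without vesicles (adjusted p = 0.616) and -0.23 to 0.57 with vesicles (adjusted p = 0.626). The 2 lowest non-cultured samples of Klf9 were replicates 4 and 5, and without them its differences were -0.08 and -0.11.

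**Figure D2:**
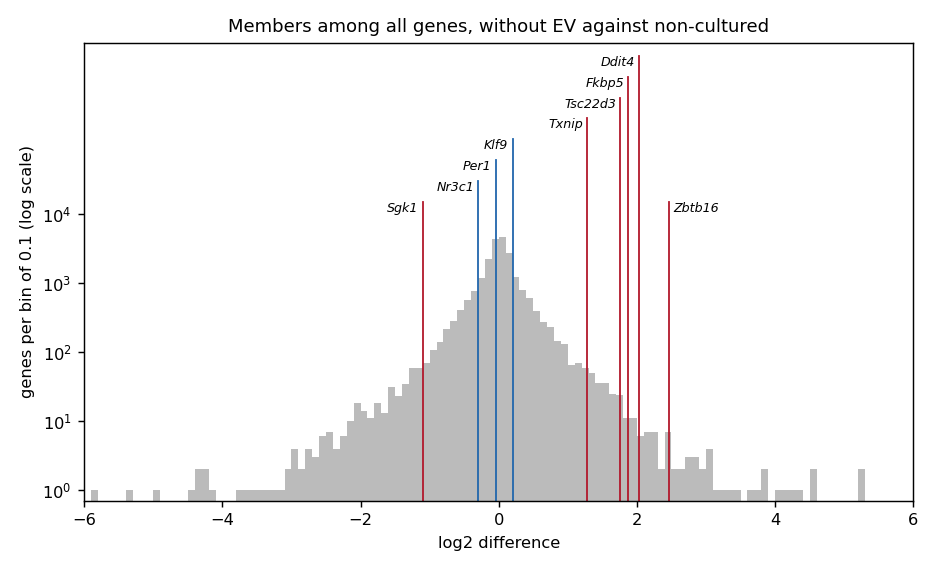
Histogram of the log2 difference, without EV minus non-cultured, over all 22180 genes (grey bars, number of genes per bin of 0.1 on a log scale). Vertical lines mark the 9 members, red where called and blue where not, and their heights only space the names; Zbtb16 at 2.46 lies farthest right and Sgk1 at -1.10 is the only called member left of 0.

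The sorted populations are bulk samples, in which more cells of a type and more RNA per cell cannot be told apart. Summed markers of myeloid cells rose in culture, as did the called members other than Sgk1, which fell. The summed signal of 5 monocyte and macrophage markers was 9.59 to 9.87 on the log2 scale in non-cultured cells, 11.30 to 11.64 without vesicles and 11.32 to 11.80 with vesicles. For 5 granulocyte markers the sums were 8.50 to 10.28, 10.83 to 11.43 and 10.68 to 11.40 in the same order. Non-cultured replicates 4 and 5 were lowest at 8.72 and 8.50. Replicates 4 and 5 were also lowest in each culture, at 11.00 and 10.83 without and 10.68 and 10.87 with vesicles. The rise of the sums was carried by Lyz2 (9.42 to 9.69 in non-cultured and 11.15 to 11.69 in cultured cells) and S100a8 (5.92 to 9.37 and 10.31 to 11.08), and Csf1r was also higher in culture. The granulocyte marker Elane was brighter than S100a8 in non-cultured cells by mean (8.61 and 8.04). Its mean was 8.72 without and 8.32 with vesicles, with overlapping ranges in the 3 groups. Cd14, Camp and Ltf also had overlapping ranges. The neutrophil surface marker Ly6g stayed near the bottom of the scale, at 2.48 to 3.61 in all samples. With non-cultured replicates 1 to 3 alone as the reference, a choice made after the data were seen, the same 6 members were called in both cultures. The 4 measured T cell markers summed to 5.68 to 6.14 over all samples, the 3 B cell markers to 5.42 to 6.06 and the 6 stromal markers to 7.37 to 7.64, with overlapping ranges in the 3 groups. The part of the myeloid markers in the members' differences was not tested.

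The promoters of the members show what binding letters lie next to them. RefSeq promoter windows of GRCm38.p6, each from 250 bases before to 50 bases after a start site, were matched by symbol for 7 members and gave 15 windows; Zbtb16 and Nr3c1 are named only. Both strands were searched for the palindromic glucocorticoid response element (AGAACA, any 3 bases, then TGTTCT) and for that hexamer alone. The other motifs were the E-box CACGTG that clock proteins bind, the cyclic AMP response element TGACGTCA and the FOXO core GTAAACA. Only these letters were matched, so variant E-boxes, such as sites of MondoA-type factors, were not looked for. The palindromic element was present in 3 of 32851 windows, or 0.00913%. The hexamer, which lies inside the palindrome and was counted there too, was in 19% of windows, the E-box in 7.15%, the cyclic AMP element in 1.79% and the FOXO core in 3.65%.

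The 250 bases before the start are shown for 4 members that moved and carry a searched motif, with the motifs in capitals.
Sgk1, chr10:21993640-21993889, plus strand: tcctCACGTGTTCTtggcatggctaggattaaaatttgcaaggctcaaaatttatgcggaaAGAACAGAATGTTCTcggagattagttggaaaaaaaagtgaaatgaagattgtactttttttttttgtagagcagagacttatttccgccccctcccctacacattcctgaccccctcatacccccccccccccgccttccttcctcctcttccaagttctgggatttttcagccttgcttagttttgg
Tsc22d3, chrX:140600523-140600772, minus strand: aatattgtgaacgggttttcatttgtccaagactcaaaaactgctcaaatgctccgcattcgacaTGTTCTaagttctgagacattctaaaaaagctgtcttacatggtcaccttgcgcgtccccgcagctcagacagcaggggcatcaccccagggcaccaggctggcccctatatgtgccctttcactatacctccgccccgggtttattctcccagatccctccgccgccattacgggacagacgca
Fkbp5, chr17:28486150-28486399, minus strand: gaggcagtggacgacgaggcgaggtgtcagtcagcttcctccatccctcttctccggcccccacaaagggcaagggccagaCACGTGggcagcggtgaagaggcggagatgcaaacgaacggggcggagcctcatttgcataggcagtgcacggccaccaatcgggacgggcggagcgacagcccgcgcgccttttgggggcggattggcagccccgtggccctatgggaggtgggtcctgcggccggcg
Txnip, chr3:96557707-96557956, plus strand: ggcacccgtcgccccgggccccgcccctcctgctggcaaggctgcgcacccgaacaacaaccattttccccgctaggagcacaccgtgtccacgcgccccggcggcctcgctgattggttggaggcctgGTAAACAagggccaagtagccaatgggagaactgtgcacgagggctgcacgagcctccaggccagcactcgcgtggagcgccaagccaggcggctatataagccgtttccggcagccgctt

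The first sequence holds the palindromic element, 189 to 175 bases before 1 of the 6 annotated Sgk1 start sites and 965 bases before the start at 21994666, and farther upstream a single hexamer that overlaps an E-box. Sgk1 windows at the starts 21882184 and 21992223 each hold a single hexamer, 195 and 13 bases upstream. Among the 7 matched members, the one with the palindrome in a window was the one that fell. The window of the Tsc22d3 start at 140600522 has a single hexamer 185 bases upstream, the Fkbp5 window has an E-box 169 bases upstream and the Txnip window has a FOXO core 121 bases upstream. Per1 has an E-box 166 bases before its start at 69098949 and Klf9 a FOXO core 100 bases before its start, while none of the 5 motifs is in the Ddit4 window. Of the other two windows with the palindrome, Acnat2 differed by -0.09 without vesicles (adjusted p = 0.816) and Gm35041 was not analysed here. A motif match describes letters in a window and not a bound site, and a window without a match can hold sites of other letters.

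The chaperones that hold the receptor before hormone binds went down in part. Of 13 measured chaperones and cochaperones, 4 fell and none rose without vesicles, with 30.8% called beside 13.6% of all genes. Their median was -0.29 (all genes 0.01). With vesicles 5 fell (38.5% called beside 14.1% of all genes). Fkbp4, which encodes FKBP52, the cochaperone that opposes FKBP51 on the receptor, was 8.39 to 8.79 in non-cultured cells, 7.38 to 8.002 without vesicles and 7.41 to 8.03 with vesicles. Its difference without vesicles was -0.92 (SE 0.14, adjusted p = 0.000346), opposite in sign to that of Fkbp5. The inducible HSP90 gene Hsp90aa1 differed by -0.59 (SE 0.09, adjusted p = 0.00025). The HSP70 partner Dnajb1 differed by -0.58 (SE 0.13, adjusted p = 0.00645) and the HSP70 to HSP90 adaptor Stip1 by -0.41 (SE 0.10, adjusted p = 0.00814). Ptges3, the cochaperone p23, was not called at -0.21 (SE 0.16, adjusted p = 0.513).

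Among other receptors and enzymes for steroids, 2 of 9 measured genes fell and none rose (22.2% called beside 13.6% of all genes), with a median of 0.05. The mineralocorticoid receptor Nr3c2, which also binds glucocorticoids, differed by -0.03 (SE 0.11, adjusted p = 0.935), and Hsd11b1, the enzyme that makes active glucocorticoid from its inert form, by 0.26 (SE 0.12, adjusted p = 0.2). The progesterone receptor Pgr fell, by 1.25 (SE 0.17, adjusted p = 0.000106), and the estrogen receptor Esr1 by 0.89 (SE 0.14, adjusted p = 0.000251). Among 16 coregulators 3 rose and 4 fell without vesicles (43.8% called), and 5 fell with vesicles (31.2% beside 14.1% of all genes). The count with vesicles was not stable: 1 rose and 2 fell under quantile normalization, 2 fell without non-cultured replicate 1, and 3 fell without non-cultured replicate 2 or without replicate 1 or 5 of the vesicle group. Without vesicles the coactivators Ncoa3 and Ncoa2 rose by 0.56 and 0.44. The chromatin proteins Cbx3, Trim28 and Smarca4 differed there by -0.92, -0.59 and -0.51 (adjusted p from 0.00326 to 0.0168 for these 5 genes). With vesicles Ncoa3 and Ncoa2 were not called, at 0.30 and 0.12 (adjusted p = 0.146 and 0.578), while Cbx3, Trim28 and Smarca4 were again called lower.

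Genes outside the 9 that the receptor is known to induce went in both directions. Of 33 measured, 7 rose and 9 fell without vesicles (48.5% called beside 13.6% of all genes), with a median of 0.02. With vesicles 8 rose and 8 fell (48.5% beside 14.1%). Pdk4, a brake on pyruvate entry into mitochondria, rose by 4.17 (SE 0.23, adjusted p = 8.16e-09). The PI3 kinase inhibitor Pik3ip1 rose by 1.77 (SE 0.10, adjusted p = 7.99e-09) and the chemokine receptor Cxcr4 by 2.27 (SE 0.14, adjusted p = 2.46e-08). In the other direction, the MAP kinase phosphatase Dusp1 differed by -2.29 (SE 0.16, adjusted p = 8.64e-08) and the NF-kB inhibitor Tnfaip3 by -2.02 (SE 0.12, adjusted p = 2.08e-08). Dusp1 and Tnfaip3 are also fast responders to stress and inflammatory signals.

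The inflammatory genes that the receptor represses fell in 6 of 18 cases and rose in 2 (44.4% called beside 13.6% of all genes), with a median of -0.05. Prostaglandin synthase Ptgs2 differed by -4.98 (SE 0.29, adjusted p = 1.44e-08), and the chemokines Cxcl10, Ccl4 and Ccl3 by -2.09, -2.29 and -1.14 (adjusted p from 1.3e-05 to 2.11e-06). All 22 immediate early genes were called lower with vesicles (7.85% of all genes) and without vesicles (6.88% of all genes). Their median without vesicles was -2.41. Nr4a1, an orphan receptor of the nuclear receptor family, differed by -5.39 on the log2 scale, Fosb by -4.48, Nr4a2 by -4.12 and Ier2 by -3.04 (adjusted p at most 5.73e-10).

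Other systems that share a target with the receptor were read in the same fit. Of 16 clock genes, 1 rose and 2 fell without vesicles (18.8% called, near the 13.6% of all genes): the clock kinase Csnk1e rose by 1.31 (SE 0.12, adjusted p = 1.46e-06), and the repressors Bhlhe40 and Nr1d2 differed by -1.40 and -0.85 (adjusted p = 0.000816 and 0.00249). Among 18 FOXO factors and FOXO targets, 5 rose and 4 fell (50% called). Pdk4 (4.17) and Pik3ip1 (1.77), given above among genes induced through the receptor, are also on this list and rose most. Catalase Cat rose by 1.39 and the insulin receptor Insr by 0.96, while Irs2 differed by -1.10 (adjusted p at most 8.18e-05). Of 13 Txnip partners and relatives, 3 rose and 3 fell (46.2% called). Mlxip, which encodes the glucose sensor MondoA that drives Txnip, rose by 0.71 (SE 0.10, adjusted p = 0.000119), its other arrestin-like target Arrdc4 by 1.18 (SE 0.22, adjusted p = 0.0014) and the beta-arrestin Arrb2 by 1.20 (SE 0.13, adjusted p = 8e-06), and the glucose transporter Slc2a1 fell by 0.88 (SE 0.13, adjusted p = 0.000252). Of 17 partners of Ddit4 and Sgk1 in mTOR signalling, 2 rose and none fell without vesicles (11.8% called, below the 13.6% of all genes): Mtor by 0.48 (SE 0.10, adjusted p = 0.00267) and the Sgk1 substrate Ndrg2 by 1.002 (SE 0.22, adjusted p = 0.00505). The 11 lists held 179 measured genes, 16 of which stood in more than 1 list.

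**Figure D3:**
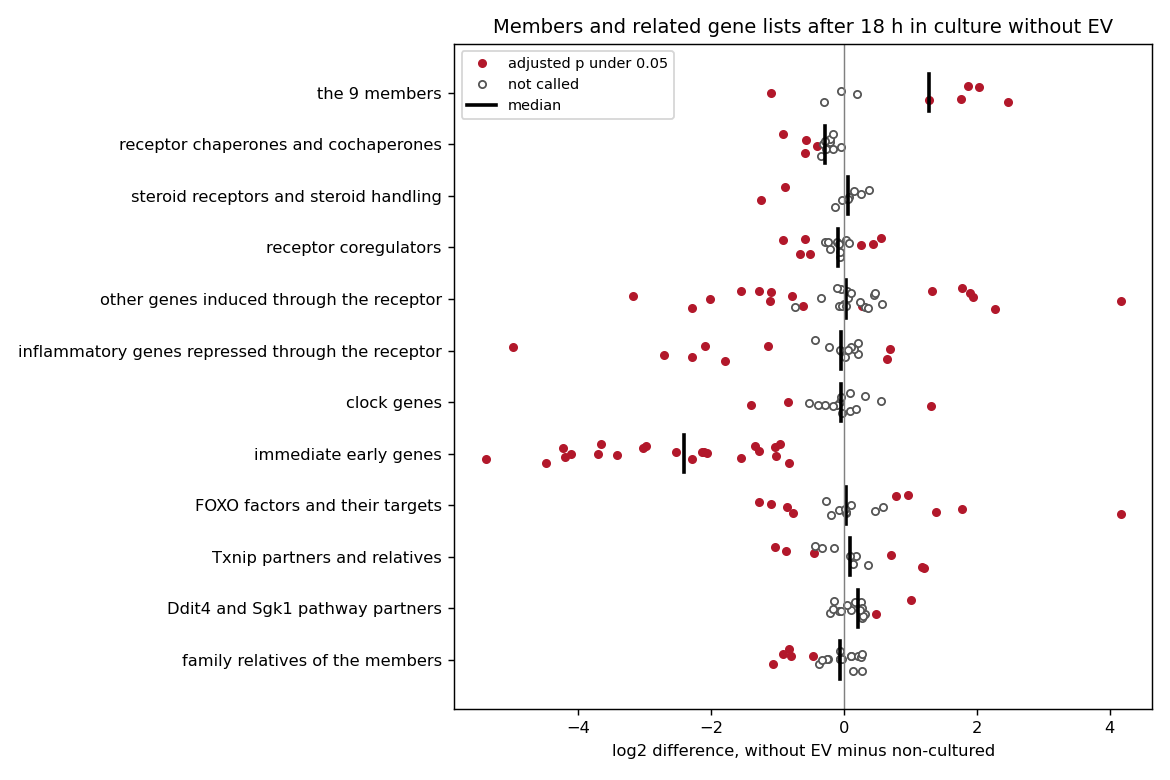
Log2 difference, without EV minus non-cultured (horizontal axis), for the 9 members and for each gene of the 11 related lists (rows). Red points passed an adjusted p of 0.05, open points did not, and black bars are medians; the members' median is 1.28, that of the 22 immediate early genes -2.41, and the other lists lie between -0.29 and 0.21.

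The genes with the nearest profile to each called member over the 15 arrays were found by the root mean square difference of centred log2 values among 10070 brighter genes. For Tsc22d3 they were Creg1 (0.18), Inpp5d (0.19), Pik3ip1 (0.21), and for Fkbp5 Gda (0.24), S100a4 (0.28), Otulinl (0.29). Zbtb16 was nearest to Sec14l2 (0.33), Abi3 (0.33), Gclm (0.33), and Sgk1 to Gtf2f2 (0.25), Relb (0.25), Mcm10 (0.26). For Txnip they were Tns1 (0.11), Cd63 (0.15), Slc48a1 (0.15), and for Ddit4 Rhag (0.38), Cxcr4 (0.46), Ptafr (0.46). These differences grow with how much a member varies, so they are not compared between members. Of these nearest genes, Pik3ip1 and Cxcr4 are on the list of other induced genes, and Pik3ip1 is also on the FOXO list. The others are on none of the related lists. Whether genes with near profiles share a regulator was not tested, and these values describe these arrays only.

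Adding stromal vesicles to the culture gave no called difference in the receptor or its targets. The with EV minus without EV difference of Nr3c1, with its 95% interval, was 0.14 (-0.12 to 0.40, adjusted p = 0.853). Among the targets that rose in culture it was -0.07 (-0.30 to 0.16, adjusted p = 0.929) for Tsc22d3 and -0.10 (-0.54 to 0.33, adjusted p = 0.948) for Fkbp5. For Zbtb16 it was 0.10 (-0.24 to 0.44, adjusted p = 0.936), and for Txnip -0.10 (-0.32 to 0.12, adjusted p = 0.882). The samples of the 2 cultures overlapped for all 9 members. Ddit4 had the widest interval, at 0.34 (-0.24 to 0.93, adjusted p = 0.835), and without replicate 5 of the vesicle group its difference was 0.06 (adjusted p = 0.972). Sgk1 differed by -0.14 (-0.52 to 0.24, adjusted p = 0.914). Per1 differed by -0.07 (-0.22 to 0.09, adjusted p = 0.887) and Klf9 by -0.03 (-0.42 to 0.37, adjusted p = 0.99). The narrowest of these intervals, that of Per1, ran from -0.22 to 0.09 on the log2 scale, and that of Ddit4 reached 0.93. The lowest unadjusted p among the members was 0.23, for Ddit4, and 6.82% of all genes had an unadjusted p under 0.05.

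**Figure D4:**
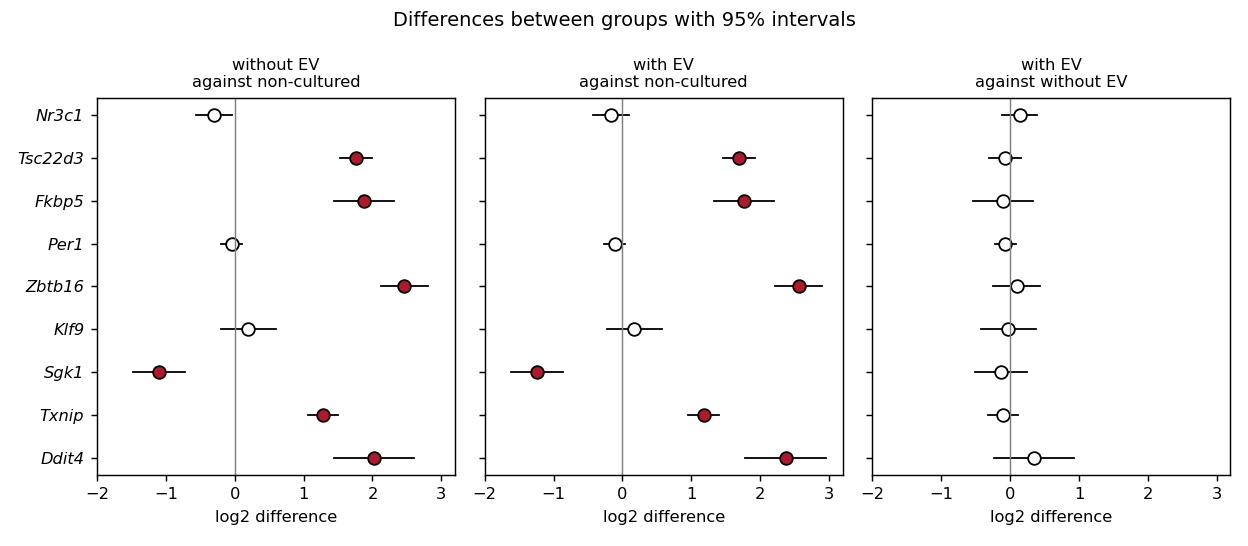
Log2 difference of each member in the 3 comparisons (panels), with 95% limma intervals as horizontal bars. Filled red points passed an adjusted p of 0.05 over all genes and open points did not; 6 members are filled in each comparison with non-cultured cells and none between the 2 cultures. The first and second panels share the non-cultured samples.

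Among the 179 measured genes of the 11 related lists, 1 was called between the cultures, where 0.198% of all genes were called. It was Tsc22d2, a family relative of Tsc22d3. Uncalled differences went both ways, such as 0.67 for Thbd (adjusted p = 0.463), 0.63 for Cxcl10 (adjusted p = 0.499) and -0.42 for Rictor (adjusted p = 0.528). The TSC22 domain family has 4 genes, whose long and short proteins pair through a leucine zipper. The log2 signal of Tsc22d2 was 7.54, 7.80, 7.40, 7.48 and 7.38 in the non-cultured samples, 6.77, 6.31, 6.88, 6.81 and 6.64 after culture without vesicles and 7.32, 7.30, 7.50, 7.49 and 7.31 after culture with vesicles. All 5 samples with vesicles were above all 5 without, and overlapped the non-cultured range. The difference between the cultures was 0.70 (SE 0.11, 95% interval 0.46 to 0.94, adjusted p = 0.0105), a 1.63-fold higher signal with vesicles. Against non-cultured cells Tsc22d2 differed by -0.84 without vesicles (adjusted p = 8.19e-05) and by -0.14 with vesicles (adjusted p = 0.5). Tsc22d1 differed by -0.24 without vesicles (adjusted p = 0.119) and by -0.50 with vesicles (adjusted p = 0.00162), and between the cultures by -0.27 (adjusted p = 0.581). Its 5 samples with vesicles were all below its 5 without, the opposite direction to Tsc22d2. The cultures did not overlap, in either direction, for 1.2% of all genes. Tsc22d4 differed by 0.13 without vesicles (adjusted p = 0.415).

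Of 20 measured genes on the list of family relatives, none was called higher and 5 were called lower without vesicles (25% called beside 13.6% of all genes). With vesicles 1 on that list rose and 4 fell (25% beside 14.1%). Arrdc4, which stands among the Txnip partners and relatives and not on that list, rose by 1.18 without vesicles (adjusted p = 0.0014). The small immunophilin Fkbp1a differed by -1.07 (SE 0.10, adjusted p = 3.11e-06) and the Krüppel-like factor Klf16 by -0.80 (SE 0.13, adjusted p = 0.000406).

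**Figure D5:**
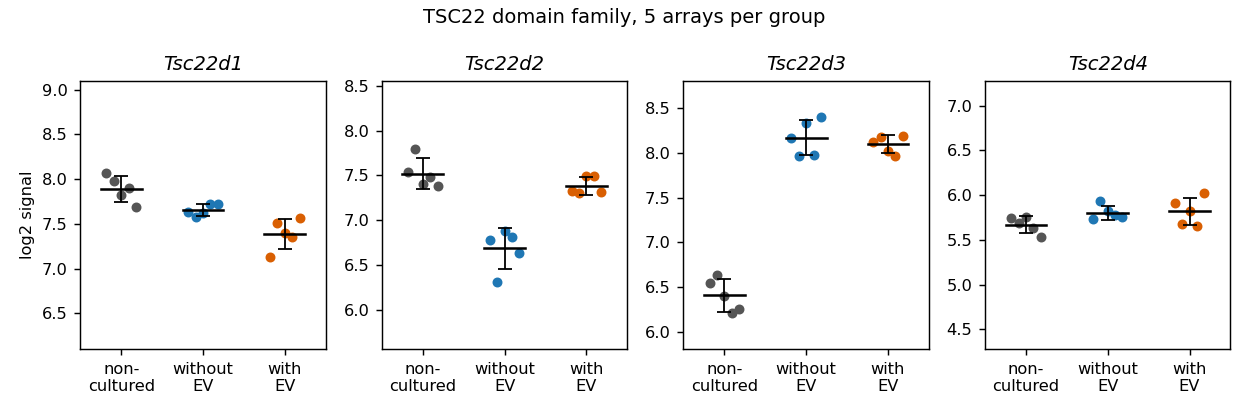
Log2 signal of the 4 TSC22 domain family genes (vertical axis, every panel spanning the same log2 range) in the 3 groups. Points are single arrays (5 per group), lines are means and bars are 1 SD; Tsc22d3 is higher in both cultures, and Tsc22d2 is lower without EV than in the other two groups.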

How the data were processed

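The arrays were Affymetrix Mouse Gene 2.0, labelled from 500 pg of total RNA. The authors processed the array scans to log2 signals, which were used as deposited, in 1 table of 41345 probe sets on 15 arrays. The log2 scale was judged from the range of the values, and how they were summarised and normalised is not given in the sources used here. MAS5 is named in the submitters' processing notes without a role. Probe sets were named through the platform annotation: 23521 had 1 gene symbol, 1814 had several and 16010 were unnamed. Of the single-symbol probe sets, 23328 matched RefSeq GRCm38.p6 by Entrez identifier. The brightest single-symbol probe set stood for a gene, which left 22180 genes.

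Values were used as deposited, since array medians differed by under 0.5. Group means were fitted with limma 3.58.1 in R 4.3.3 over all 15 arrays (12 residual and 3.66 prior degrees of freedom), with two-sided moderated tests and Benjamini-Hochberg adjustment over all genes. The fit was tested on simulated data with known changes. The labels do not say whether samples of a group came from separate animals, so p-values measure the spread between these samples. No batch is given in the sources used here. The members and gene lists were chosen with earlier results of these data known. Text names all members, fixed partner genes, up to 4 genes per list with the smallest adjusted p without vesicles and up to 2 between the cultures, and the 3 nearest profiles of each called member. Alternatives were quantile normalization, median centring, averaged probe sets, a filter on the dimmest 40% of genes, the spread of the compared groups alone, array weights, a replicate block, leaving out each array, and non-cultured replicates 1 to 3 alone as reference. The last was chosen after seeing the data. Same-numbered samples had correlated deviations from -0.12 to 0.19 over 15 pairs, 1 of them over 0.1. Between the cultures with and without vesicles these correlations were all positive, at 0.02 to 0.19. No pairs are described, so the main fit did not take the numbers as pairs, and the replicate block was an alternative.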

Additional observations from a re-analysis of the deposited data

Results flagged for a closer look

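In 4 of 27 member and group combinations, 1 sample lay far from the other 4 of its group, by a gap of more than 0.71 of the group's range (Dixon's 95% critical value for 5 samples); chance gives about 1 in 20. Nr3c1 was lowest in replicate 4 without vesicles, at 7.04, with the nearest sample at 7.63. Klf9 was highest in replicate 3 with vesicles, at 7.31, next to 6.94. Sgk1 was lowest in replicate 2 without vesicles, at 4.11, next to 4.60, and without that sample its difference from non-cultured cells was -0.99 (adjusted p = 0.00145). Ddit4 was highest in replicate 5 with vesicles, at 9.53, next to 8.25.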

How the results depend on the processing

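The 12 called member differences kept their call and direction in all 276 values from the alternatives, and the 15 uncalled ones had 0 of 336 values called. No paired samples are described; with the replicate block, 2987, 3063 and 39 genes were called without vesicles, with vesicles and between the cultures, beside 3022, 3135 and 44, and 6, 6 and 0 members. Leaving out 1 array at a time gave 29 to 53 genes called between the cultures, the 29 without replicate 2 of the culture without vesicles. Signs turned only among uncalled differences. Under quantile normalization Per1 stood at 0.0516 without and 0.0573 with vesicles against non-cultured cells, and between the cultures Tsc22d3 at 0.0033, Per1 at 0.0057 and Klf9 at 0.0462. With averaged probe sets Nr3c2 stood at 0.00997. With non-cultured replicates 1 to 3 alone, Per1 stood at 0.0198 without vesicles and Klf9 at -0.0795 without and -0.11 with vesicles. Leaving out 1 array gave ranges between the cultures of -0.11 to 0.10 for Klf9, -0.0202 to 0.18 for Zbtb16 and -0.16 to 0.0069 for Fkbp5, and of -0.0543 to 0.0117 for Nr3c2 without vesicles. Gtf2f2, the nearest profile to Sgk1, lost its call without vesicles in 6 such fits (adjusted p up to 0.0835). Tsc22d2 between the cultures kept its call in 21 of 22 alternatives (adjusted p 0.00413 to 0.0527), all but the block. Median centring changed the genes called with vesicles from 1394 higher and 1741 lower to 996 and 2122. The causes of these changes were not tested.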
